A study of Rattus norvegicus with 6 samples.

Results

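The mitochondrial carrier genes of the *Slc25a* family were examined through the accessible chromatin sites (ACS) of rat pancreatic islets. All ACS whose nearest annotated gene has a symbol starting with Slc25a were taken, which gave 151 of 101603 distinct ACS and 35 of 13834 gene symbols. SLC25 proteins lie in the inner mitochondrial membrane, with a few exceptions in other organelle membranes, and exchange adenine nucleotides, phosphate, keto acids, amino acids, acylcarnitines and cofactors between cytosol and matrix. In β-cells, ATP made from glucose leaves the mitochondria through such carriers before the insulin granules are released, and the carriers of citrate, malate and oxoglutarate feed the cycles that connect mitochondrial metabolism with secretion. Symbols *Slc25a12* and *Slc25a13*, the aspartate and glutamate exchangers, were not analysed here.

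ATAC-seq, in which the Tn5 transposase inserts sequencing adapters where DNA is open, was applied to dissociated islet cells of untreated rats without any transgene. The Adult group had 3 libraries, replicates 4, 5 and 6, each from a male Sprague-Dawley rat that the labels call adult. The P10 group had 3 libraries, replicates 1, 2 and 3, from pooled male and female pups of 3 litters born to Sprague-Dawley dams and aged 10 days. Age, sex and single rats against pooled pups cannot be told apart in this design. Transposase events were counted per library at every ACS. The sums of these counts were 11903909, 10319487 and 7916919 in Adult 4, 5 and 6 and 21168463, 13491534 and 18108935 in P10 1, 2 and 3. Every Adult library thus had fewer counts in ACS than every P10 library, and this depth cannot be told apart from age either.

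In sum, the *Slc25a* ACS held much the same part of all integrations at both ages. The share was 0.211%, 0.197% and 0.196% in Adult 4, 5 and 6 and 0.218%, 0.209% and 0.1999% in P10 1, 2 and 3, so the groups overlapped. With counts divided by library sizes scaled with TMM factors (CPM), the sum was 2084 ± 164 in Adult and 2022 ± 116 in P10 (SD, n = 3 each). Islet cells were measured in bulk, so a smaller number of cells of one type and less open chromatin per cell cannot be told apart here or in any result that follows.

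Single sites did differ between the ages. An ACS was called Up (more integrations in Adult) or Down (fewer in Adult) when edgeR's quasi-likelihood test over all ACS gave a p-value under 0.05 and a Benjamini-Hochberg FDR under 0.2. These directions follow the column names of the table, whose letters and numbers match the library titles. The study also uses Up for ACS more open in adults, but its text gives the larger share to Down whereas the table gives it to Up, a difference that was not settled here. By position the table and the study go the same way, with Up calls more frequent at distal ACS and Down calls more frequent at gene starts. Of the 151 *Slc25a* ACS, 22 were called Up, or 14.6%, where 12.3% of all ACS were Up. Down calls were made for 6, or 3.97%, where 6.63% of all ACS were Down. At an FDR under 0.05 there were 12 Up and 1 Down, against 7.06% and 1.91% of all ACS. Both shares of calls were near those of the whole table. The Up count fell to 14 without Adult 4 and to 12 without P10 3, and the Down count was 10 without Adult 5 and 2 without Adult 6 or without P10 2. In these fits 9.56% and 8.77% of all ACS were Up, and 7.1%, 4.96% and 3.23% were Down. The median log2 fold change was 0.02 over the *Slc25a* ACS and -0.01 over all ACS, and the 123 ACS without a call lay between -0.92 and 0.61. Without regard to a test, 23 of the 151 had all Adult libraries above all P10 libraries and 12 had them all below, where 13.8% and 10.9% of all ACS did so.

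Up and Down are also relative to the TMM scaling. With column sums as library sizes the median of all ACS moved from -0.01 to -0.10 and 15 *Slc25a* ACS were Up and 16 Down, beside 10.3% and 10.6% of all ACS. Cyclic loess scaling gave 18 Up and 15 Down, beside 10.9% and 8.96%. When library sizes were total reads, the median of all ACS was -0.84, and 4 *Slc25a* ACS were Up and 96 Down, beside 1.05% and 60.7%. The 4 that stayed Up were the pair of *Slc25a24* sites with the largest log2 fold changes, the upstream site of *Slc25a46* and the site inside *Slc25a47* described below.

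Calls were spread over 15 of the 35 genes, or 42.9%, where 49.0% of all symbols had a called ACS. They are given by kind of site beside the whole table, and the difference between kinds was not tested. Of 92 distal ACS, 18 were Up and 3 Down, with 13.8% Up and 6.45% Down among all distal ACS. Proximal ACS numbered 25, of which 3 were Up and 1 Down, with 11.2% and 6.71% in the whole class. At transcription start sites (TSS class) 1 of 34 was Up and 2 were Down, with 2.73% and 7.87% among all ACS of that class. The median log2 fold change was 0.04 for distal, 0.01 for proximal and -0.09 for TSS-class *Slc25a* ACS, beside 0.02, -0.04 and -0.10 for all ACS of these classes. Among the 46 sites downstream of their gene 11 were Up and 0 Down by edgeR's test, with 0 Down at an unadjusted p under 0.05 and 0 by DESeq2 and voom, where 12.5% of all downstream ACS were Up and 6.22% Down, a split noticed after the values were seen.

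A TSS-class ACS was found for 30 of the 35 genes, and their accessibility per kb of width covered a wide range. The start of *Slc25a42*, which carries coenzyme A, was the most accessible at 137 ± 16.5 CPM per kb (SD, n = 6 libraries of both ages), and its lowest library at 118 lay above every library of the next gene. *Slc25a40*, *Slc25a28* and *Slc25a3* followed at 70.7 ± 6.96, 69.95 ± 7.60 and 67.8 ± 7.26 CPM per kb and overlapped among themselves. All of these 3 lay above *Slc25a29* at 49.7 ± 6.82 CPM per kb, whose highest library reached 57.1 while the lowest of *Slc25a3* was 60.3. They did overlap with *Slc25a46*, which lay further down at 46.7 ± 8.80 CPM per kb but reached 63.97 in its highest library. From *Slc25a29* down to the last gene every pair of neighbours in the order overlapped. *Slc25a22*, a glutamate carrier, and *Slc25a21*, a carrier of oxoadipate, came last at 12.45 ± 3.05 and 12.1 ± 1.33 CPM per kb. This order pools the ages, and in the mean of the Adult libraries *Slc25a34* was lowest at 10.95 CPM per kb, beside 11.4 for *Slc25a22* and 12.6 for *Slc25a21*. The site over the start of the mitoferrin gene *Slc25a37* is listed in the proximal class and is not part of this order.

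Adenine nucleotide and phosphate carriers comprised 35 ACS of 7 genes, of which 7 were Up and 1 Down, beside 12.3% and 6.63% of all ACS, with a median log2 fold change of 0.07. None of the 6 TSS-class sites was called by edgeR, where 2.73% of all TSS-class ACS were Up and 7.87% Down, and the smallest edgeR FDR among them was 0.334. At *Slc25a3*, the phosphate carrier, the start site at chr7:31910800-31911867 (coordinates of ACS are those of the Rn5 assembly) had 86.8, 64.4 and 71.0 CPM in Adult 4, 5 and 6 and 73.0, 71.6 and 67.4 CPM in P10 1, 2 and 3. The ADP/ATP exchanger *Slc25a4* had 44.5, 34.8 and 43.4 CPM in Adult and 43.9, 35.2 and 39.6 CPM in P10 at chr16:48981254-48982399. For its paralog *Slc25a5*, at chrX:123549489-123549950, the values were 19.3, 16.5 and 23.7 CPM in Adult and 17.99, 18.2 and 20.2 CPM in P10. In all of these the ages overlapped, and the log2 fold changes were 0.07 ± 0.15, 0.04 ± 0.17 and 0.07 ± 0.20 (SE), each with a sign that turned with the scaling. The start of *Slc25a25*, a calcium-regulated carrier of ATP-Mg and phosphate, had 40.3, 30.97 and 22.7 CPM in Adult and 38.02, 23.8 and 19.1 CPM in P10 at chr3:16801214-16801920. Its log2 fold change of 0.22 ± 0.22 was smaller than the spread among litters and among rats.

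Several of the called sites of this group lay around *Slc25a24* and *Slc25a54*, neighbours on chromosome 2 whose listed spans are 4752 bp apart. *Slc25a24* encodes another ATP-Mg and phosphate carrier. Over the 209.6 kb that their 8 ACS span, 4 were Up and 0 Down by edgeR's test, beside 12.3% and 6.63% of all ACS, a stretch singled out after its values were seen. The ACS at chr2:231388964-231389239, assigned to *Slc25a24* but lying within the listed span of *Slc25a54*, had 8.13, 7.11 and 10.7 CPM in Adult and 3.25, 2.50 and 3.07 CPM in P10. Every adult was above every P10 library, with a log2 fold change of 1.54 ± 0.28 and an edgeR FDR of 0.000495. Downstream of *Slc25a24*, 70608 bp from its start, the ACS at chr2:231472012-231472285 had 8.68, 4.97 and 6.83 CPM in Adult and 2.09, 2.35 and 2.06 CPM in P10. The P10 libraries were close together and the adults spread above them, and the log2 fold change was 1.66 ± 0.30 with an edgeR FDR of 0.000571. The only ACS of *Slc25a54*, 20867 bp upstream of it at chr2:231330403-231331157, had 10.5, 10.1 and 10.1 CPM in Adult and 5.58, 6.63 and 5.71 CPM in P10. Here the adults differed from each other by little, and the log2 fold change was 0.78 ± 0.24 with an edgeR FDR of 0.037, a value that became -0.05 when total reads set the library sizes. The start site of *Slc25a24* itself, at chr2:231401050-231401801, went the other way without a call, at 29.2 ± 2.08 CPM in Adult and 35.8 ± 2.01 CPM in P10 (SD, n = 3 each).

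*Slc25a5* on the X chromosome had 11 ACS, 2 of them Up and 9 not called. At chrX:123450786-123451181, 98950 bp upstream of the gene, integrations were 7.68, 7.11 and 9.93 CPM in Adult and 5.02, 4.35 and 3.70 CPM in P10. The groups did not overlap, with a log2 fold change of 0.91 ± 0.27 and an edgeR FDR of 0.0281. The other Up site lay 50083 bp upstream and differed by 0.88 ± 0.29, a call lost without Adult 6 or P10 3 (0.73 to 1.04 with 1 library left out). Since the pups were of both sexes and the adults male, X-linked sites carry a difference in sex as well as in age. Of the 15 *Slc25a* ACS on this chromosome, which belong to *Slc25a5* and *Slc25a14*, 2 were Up and 0 Down by edgeR's test, where 6.88% of all X-linked ACS were Up and 9.2% Down. The 3 remaining calls of the group were the downstream *Slc25a24* site at chr2:231539355-231539985 (0.51 ± 0.18), a proximal *Slc25a25* site (0.65 ± 0.28) whose groups overlapped, and 1 Down site 76584 bp upstream of *Slc25a4* (-0.81 ± 0.34), whose groups overlapped as well. These calls were lost without Adult 6 or P10 2 for the *Slc25a24* site (0.46 to 0.57 with 1 library left out), without Adult 4, Adult 5, P10 2 or P10 3 for *Slc25a25* (0.36 to 1.23), and without Adult 4, Adult 6, P10 1 or P10 2 for *Slc25a4* (-1.23 to -0.58). By voom 0 ACS of the group were Down.

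Carriers of di- and tricarboxylates had 21 ACS of 4 genes. They gave 3 Down and 0 Up calls by edgeR, beside 6.63% and 12.3% of all ACS, with 0 Up at an unadjusted p under 0.05 and 0 by DESeq2 and voom. Of the 3 Down calls 2 were sites of 1 gene and 2 were lost when some single libraries were left out. The group had a median log2 fold change of -0.16. *Slc25a11*, the oxoglutarate and malate exchanger of the malate-aspartate shuttle, had a single ACS, over its start at chr10:57013553-57014279. It held 15.5, 15.2 and 9.80 CPM in Adult 4, 5 and 6 and 22.8, 23.1 and 16.02 CPM in P10 1, 2 and 3. All adults were below all P10 libraries, though Adult 4 and Adult 5 were close to P10 3, and the log2 fold change was -0.61 ± 0.22 with an edgeR FDR of 0.0858. The call was lost without Adult 6 (-0.43) and without P10 2 (-0.54). The citrate carrier *Slc25a1* had 24.9, 26.6 and 21.7 CPM in Adult and 28.96, 27.3 and 23.4 CPM in P10 at its start, chr11:90295085-90296539, and *Slc25a10*, the dicarboxylate carrier, had 11.7, 13.6 and 10.6 CPM in Adult and 18.9, 13.8 and 11.8 CPM in P10 at chr10:109258588-109259289. In both the ages overlapped, with log2 fold changes of -0.12 ± 0.18 and -0.31 ± 0.22 and no call. The *Slc25a10* value was -0.10 without P10 1.

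*Slc25a21*, with 15 ACS and a listed span of 485971 bp, contributed the other Down calls, both at weak sites inside the gene. At chr6:87625732-87626092, 10858 bp into the gene, Adult 4, 5 and 6 had 21, 18 and 23 integrations, or 1.90, 1.75 and 2.96 CPM. The P10 libraries had 78, 76 and 89 integrations there, or 3.63, 5.42 and 4.70 CPM. The groups did not overlap, and the log2 fold change was -1.07 ± 0.33 with an edgeR FDR of 0.0413, the only Down call of the family at an FDR under 0.05. A site at chr6:87517215-87517477 was Down with a log2 fold change of -0.93 ± 0.35, and it lost its call without Adult 5, P10 2 or P10 3 (-1.11 to -0.74 with 1 library left out). The start site of the gene was at 11.7 CPM in Adult and 10.8 CPM in P10 and was not called.

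Among aspartate and glutamate carriers, only *Slc25a22* had ACS. Its start site at chr1:221335063-221335641 had 7.77, 6.04 and 6.06 CPM in Adult and 10.6, 6.13 and 6.71 CPM in P10, so that P10 1 stood above the rest while the other libraries overlapped. The log2 fold change of -0.24 ± 0.27 was not called and had the opposite sign, at 0.03, without P10 1. Both sites lie in a part of chromosome 1 where the listed spans of 8 other symbols hold them too, so their assignment is open to other genes.

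Acylcarnitine and amino acid carriers had 18 ACS of 6 genes and 0 calls in either direction by edgeR, DESeq2 and voom, beside 12.3% Up and 6.63% Down of all ACS, with 0 at an unadjusted p under 0.05 and a median log2 fold change of 0.01. At the start of *Slc25a20*, which brings acylcarnitines to β-oxidation, integrations were 5.06, 5.55 and 5.93 CPM in Adult and 6.23, 6.35 and 5.18 CPM in P10 (chr8:116799997-116800345). The ages overlapped and the log2 fold change was -0.10 ± 0.26. Of the 9 ACS of *Slc25a15*, the ornithine carrier, the lowest log2 fold change was -0.49 and the highest 0.55. The start site of *Slc25a29*, a carrier of basic amino acids, had 51.6, 50.9 and 46.02 CPM in Adult and 45.6, 38.4 and 36.8 CPM in P10. Adults were above P10 by a small margin, with a log2 fold change of 0.30 ± 0.16 and an edgeR FDR of 0.296, which is outside the limit.

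Cofactor and nucleotide carriers had the most sites, 44 ACS of 7 genes, with 7 Up and 0 Down by edgeR's test, beside 12.3% and 6.63% of all ACS, and a median log2 fold change of -0.00. At an unadjusted p under 0.05 there were 2 Down, and voom called 1 and DESeq2 0 of them. *Slc25a26*, the carrier that brings S-adenosylmethionine into mitochondria, accounted for 25 of them and for 5 of the Up calls. The strongest lay at chr4:191168828-191169245, 132659 bp from the gene start and beyond the gene's end, with 17.2, 12.1 and 12.2 CPM in Adult and 6.23, 3.99 and 4.18 CPM in P10. Adult and P10 libraries were well apart, with a log2 fold change of 1.52 ± 0.25 and an edgeR FDR of 0.0002. Further downstream, chr4:191283362-191283814 had 11.7, 14.02 and 12.1 CPM in Adult and 6.83, 6.49 and 7.56 CPM in P10. The ACS at chr4:191318117-191318576 had 16.9, 15.1 and 13.8 CPM in Adult and 8.74, 8.13 and 8.56 CPM in P10. These sites, 247193 and 281948 bp from the start, did not overlap between the ages either, and both had a log2 fold change of 0.85, with SE of 0.23 and 0.22 and edgeR FDR of 0.0158 and 0.0112. The remaining Up sites of the gene were weaker. They lay inside it at chr4:191095448-191096047 (0.50 ± 0.21) and downstream at chr4:191195007-191195235 (0.69 ± 0.31), and the latter lost its call whichever library was left out, at 0.57 to 0.74. At the former the ages overlapped, and its call was lost without Adult 4, Adult 6, P10 2 or P10 3, with a log2 fold change between 0.39 and 0.67 when 1 library was left out.

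Other sites of the gene were not called. The start of *Slc25a26* at chr4:191035900-191036424 had 12.1 CPM in Adult and 12.6 CPM in P10, and its most accessible site, at chr4:191230778-191231882, had 80.8 and 78.2 CPM, with log2 fold changes of -0.05 ± 0.22 and 0.05 ± 0.15. In this group *Slc25a17*, a carrier of coenzyme A and related cofactors in peroxisomes, had an Up site 50290 bp downstream of its start (0.85 ± 0.29), and *Slc25a33*, a pyrimidine nucleotide carrier, had one inside the gene (0.78 ± 0.36) whose groups overlapped. The call was lost without Adult 4 or P10 3 for *Slc25a17* (0.58 to 1.09 with 1 library left out) and without Adult 4, P10 1 or P10 3 for *Slc25a33* (0.39 to 1.15). Only 144 bp from the Up site of *Slc25a17*, a stronger ACS at chr7:122507498-122508034 was not called. It had 36.4, 29.1 and 23.98 CPM in Adult and 36.4, 18.3 and 19.5 CPM in P10. The ages overlapped there, with a log2 fold change of 0.27 ± 0.22.

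Carriers linked to iron and glutathione, *Slc25a28* and *Slc25a37* (mitoferrins), *Slc25a39* and *Slc25a40*, had 10 ACS with 1 Up and 0 Down by edgeR, beside 12.3% and 6.63% of all ACS, and a median log2 fold change of -0.15. The Up site was assigned to *Slc25a40* at chr4:22501290-22501805, 92380 bp from its start, and lies inside the listed span of *Rundc3b*. It had 15.3, 9.35 and 14.2 CPM in Adult and 5.86, 6.99 and 4.92 CPM in P10, without overlap. The log2 fold change was 1.13 ± 0.25 with an edgeR FDR of 0.00352, whereas the start site of *Slc25a40* was at -0.06 ± 0.16. The *Slc25a37* site over its start had the highest CPM of the group, at 92.2 ± 11.2 CPM in Adult and 101 ± 9.38 CPM in P10 (SD, n = 3 each), and was not called. Per kb of width its mean over all libraries was 60.3 CPM, below 70.7 for the start of *Slc25a40* and 69.95 for that of *Slc25a28*.

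Genes named for their likeness to uncoupling proteins, *Slc25a14* and *Slc25a27*, had 5 ACS. The 1 ACS of *Slc25a27*, over its start at chr9:18757675-18758570, had 45.9, 44.6 and 50.8 CPM in Adult and 31.1, 39.01 and 39.7 CPM in P10. All adults were above all P10 libraries and P10 1 was the lowest, and the log2 fold change was 0.36 ± 0.16 with an edgeR FDR of 0.19. This call was close to the limit. It was lost without Adult 4 (0.38), Adult 6 (0.31), P10 1 (0.25), P10 2 (0.40) or P10 3 (0.42), and with DESeq2, median-of-ratios factors, column sums and cyclic loess, and it turned to -0.46 with total reads.

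Orphan and other carriers had 16 ACS of 4 genes, with 6 Up and 2 Down, beside 12.3% and 6.63% of all ACS, and a median log2 fold change of 0.31. *Slc25a46*, which acts at the outer membrane in mitochondrial shape, had 8 ACS. Its ACS at chr18:24152670-24153009, 37750 bp upstream, had 10.8, 6.23 and 8.77 CPM in Adult and 3.39, 1.997 and 2.22 CPM in P10, a log2 fold change of 1.75 ± 0.30 with an edgeR FDR of 0.000275. On the other side of the gene, 98685 bp from the start, the ACS at chr18:24016235-24016542 had 18.6, 11.2 and 13.3 CPM in Adult and 8.60, 7.06 and 4.55 CPM in P10, or 1.09 ± 0.26 with an edgeR FDR of 0.0062. At both sites Adult 4 was the highest library and the ages did not overlap. The strongest site of the gene, chr18:24136815-24138187, lay between them and differed by 0.10 ± 0.14, and 3 of the 8 ACS had fewer than 20 integrations per library on average, so that a moderate difference was not detectable there.

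*Slc25a47*, a carrier best known from liver, was the gene with the largest shift in summed integrations, and its sites did not move alike. Inside the gene, chr6:141937490-141937704 had 5.96, 11.6 and 7.48 CPM in Adult and 2.28, 1.28 and 3.59 CPM in P10. The ages were apart although Adult 5 was far above the other adults, with a log2 fold change of 1.78 ± 0.33 and an edgeR FDR of 0.00069, the largest of the family. Only 452 bp away, chr6:141936766-141937037 was Down, at 1.08, 1.95 and 1.16 CPM in Adult and 2.93, 2.85 and 2.80 CPM in P10 (-1.02 ± 0.38), a weak site with 9 integrations in Adult 6. Its call was lost without Adult 4, Adult 6 or P10 2, with a log2 fold change between -1.35 and -0.85 when 1 library was left out. The downstream ACS at chr6:141951871-141952146, within the listed span of *Wars*, had 11.0, 4.67 and 8.25 CPM in Adult and 4.46, 5.28 and 2.43 CPM in P10. Adult 5 fell among the P10 libraries there, and the log2 fold change of 0.99 ± 0.32, with an edgeR FDR of 0.0486, lost its call without Adult 4 (0.66) and without P10 3 (0.70).

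*Slc25a34*, an orphan carrier, also had calls in both directions. Its start site at chr5:163894410-163894686 held 3.07, 4.48 and 1.55 CPM in Adult and 7.99, 5.28 and 4.65 CPM in P10. Adult 5 came close to P10 3 without overlap, Adult 6 had 12 integrations, and the log2 fold change was -0.96 ± 0.33 with an edgeR FDR of 0.0725. The call was lost without Adult 6 (-0.67) and without P10 1 (-0.69). On either side, ACS at chr5:163888390-163888625 (0.73 ± 0.31) and, inside the listed span of *Plekhm2*, at chr5:163908509-163908982 (0.75 ± 0.31), where the ages overlapped, were Up, and lost their calls, the former without any library but Adult 6 (0.60 to 0.83 with 1 library left out) and the latter without Adult 5, Adult 6, P10 2 or P10 3 (0.46 to 1.04).

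When the integrations of all ACS of a gene were summed and tested over 13834 genes, 4 *Slc25a* genes were Up and 1 was Down, or 11.4% and 2.86%, where 10.5% and 7.69% of all genes were called. *Slc25a47* had a log2 fold change of 0.93 ± 0.19 (edgeR FDR of 0.00726) and *Slc25a54* one of 0.77 ± 0.23 (edgeR FDR of 0.0553), and both were called in all 6 fits that left out 1 library. *Slc25a27* (0.36 ± 0.14) and *Slc25a29* (0.30 ± 0.12) were called in 3 and 1 of these fits, and *Slc25a11* (-0.61 ± 0.20) in 4. The count of Up genes was 2 without Adult 6 or P10 2, and that of Down genes was 0 without either of these and 2 without Adult 5, P10 1 or P10 3. Of all genes 5.89% and 3.09% were Up without Adult 6 and without P10 2. In the order given, 3.16%, 1.53%, 8.17%, 9.79% and 7.39% of all genes were Down. Except for *Slc25a47* these are genes with 1 ACS, as 9 of the 35 are, so the sum repeats that site in another fit, with its own SE and count of tests. For *Slc25a29* edgeR's p-value was 0.0733 over ACS, where it was not called, and 0.0261 over genes. *Slc25a26*, with 5 Up sites, had a summed log2 fold change of 0.15 ± 0.12 and was not called.

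Related genes outside the symbol rule were counted for comparison. Among them were uncoupling proteins, pyruvate carriers, porins, the calcium uniporter and enzymes of the shuttles, of which 22 of 23 had 122 ACS with 19 Up and 6 Down by edgeR, beside 12.3% and 6.63% of all ACS, and a median log2 fold change of -0.01. Their 20 TSS-class ACS gave 0 calls by edgeR, DESeq2 and voom and 0 at an unadjusted p under 0.05, where 2.73% of all TSS-class ACS were Up and 7.87% Down. By summed integrations 3 of these genes were Up and 0 Down by edgeR, beside 10.5% and 7.69% of all genes, namely *Mcu* (0.34 ± 0.11), *Got2* (0.39 ± 0.13) and *Glud1* (0.54 ± 0.24). *Got2* had 38 of the ACS and 11 of the 19 Up calls. The only ACS of *Glud1* had 15.6, 30.9 and 16.1 CPM in Adult and 13.2, 17.9 and 12.4 CPM in P10, so Adult 5 stood apart and the ages overlapped. RefSeq further gives the name Slc25a51 to a gene listed as *Mcart1*, with 4 Up and 1 Down of 14 ACS, Slc25a53 to *Mcart1l*, with 3 ACS, and Slc25a30 to a gene listed by number only, with 2 ACS. The last pair of genes had no calls, and all 3 genes stayed outside the counts given above.

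Markers of the cell types that an islet preparation holds were read in the same libraries. Of 12 endocrine genes 9 had ACS, with *Ins1*, *Ins2*, *Gcg* and *Sst* among them and *Mafa*, *Chga* and *Ppy* not analysed here. Their 91 ACS summed to 975, 818 and 857 CPM in Adult 4, 5 and 6 and 1056, 845 and 851 CPM in P10 1, 2 and 3, the largest part as a mean of all libraries at *Ins1*, but at *Nkx6-1* in every Adult, with 8 Up and 15 Down, beside 12.3% and 6.63% of all ACS. The sums overlapped between the ages while single genes did not move alike. By summed integrations *Ins1* was Down (-0.59 ± 0.13), at 205, 173 and 194 CPM in Adult and 342, 240 and 275 CPM in P10 without overlap, *Ins2* (-0.38 ± 0.15) and *Hhex* (-0.54 ± 0.14) were Down, and *Nkx6-1* was Up (0.35 ± 0.12). The insulin, glucagon and somatostatin genes had integrations in all libraries, but so did markers of other cell types. At its start *Ins1* had 94.4, 75.1 and 94.9 CPM in Adult and 203, 106 and 134 CPM in P10. The start of *Sst* had only 2.08, 1.75 and 4.38 CPM in Adult and 3.49, 3.99 and 3.44 CPM in P10. That of the duct gene *Cftr* was higher, at 9.76, 11.4 and 12.9 CPM in Adult and 12.9, 21.8 and 21.7 CPM in P10. Endothelial genes, 6 of 6 with 59 ACS, had 483, 408 and 481 CPM in Adult and 387, 371 and 364 CPM in P10, most at *Cdh5*, with 10 Up and 2 Down. Duct genes, 4 of 5 with 38 ACS, had 275, 244 and 277 CPM in Adult and 212, 218 and 236 CPM in P10, most at *Sox9* as a mean of all libraries and at *Cftr* in Adult 4 and 6, with 4 Up and 5 Down. Both of these sums were higher in every Adult than in every P10 library, and their part in the result was not tested. In the duct list *Cftr* alone was Up by summed integrations (0.61 ± 0.16), with *Krt19* at 0.25 ± 0.22, *Sox9* at 0.08 ± 0.11 and *Spp1* at -0.18 ± 0.14. The 3 TSS-class ACS of the duct list went the other way, at 17.5, 20.2 and 19.5 CPM in Adult and 24.7, 34.4 and 34.04 CPM in P10, with 2 Down. In the endothelial list *Cdh5* (0.52 ± 0.12) and *Kdr* (0.33 ± 0.13) were Up, while *Pecam1* (-0.13 ± 0.12), *Tek* (-0.03 ± 0.14), *Tie1* (-0.37 ± 0.20) and *Flt1* (0.30 ± 0.18) were not called. The 2 TSS-class ACS of the endothelial list did not share the higher Adult sum. They had 23.5, 26.7 and 31.7 CPM in Adult and 28.9, 35.5 and 32.8 CPM in P10, with overlap and without a call.

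Of the acinar, stromal, immune and proliferation lists, the stromal list did not overlap between the ages. Their calls stand beside 12.3% Up and 6.63% Down of all ACS. Acinar genes, 9 of 11, had 476, 419 and 436 CPM in Adult and 432, 404 and 400 CPM in P10, most at *Ptf1a*, with 5 Up and 6 Down of 63 ACS. Stromal genes, 5 of 6, had 331, 322 and 342 CPM in Adult and 310, 306 and 317 CPM in P10, most at *Col1a2*, with 3 Up and 4 Down of 43 ACS. By summed integrations *Col1a2* was at 0.21 ± 0.12 and not called. *Pdgfra* (-0.14 ± 0.15), *Col1a1* (-0.13 ± 0.19), *Col3a1* (-0.06 ± 0.16) and *Pdgfrb* (-0.01 ± 0.16) were not called either. Immune genes, 5 of 6, had 34.2, 30.7 and 36.7 CPM in Adult and 35.98, 31.4 and 39.6 CPM in P10 over 10 ACS, with 1 Down. Proliferation genes, 4 of 5, had 190, 199 and 174 CPM in Adult and 187, 195 and 174 CPM in P10, most at *Cdk1*, with 3 Up and 1 Down of 22 ACS. Their part in the result was not tested for these lists either.

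Promoter sequences are shown for the 3 genes whose start site carried a call and for 3 of the 5 genes whose promoter held a regulatory word searched, namely both with a cAMP response element and *Slc25a54*. RefSeq promoters of the GRCr8 assembly, from 250 bases before to 50 bases after the gene start, were matched for 30 of the 35 symbols. GRCr8 positions are not those of the Rn5 ACS and were not converted. The median G and C content was 60.5% in these 30 and 51.7% in all 33469 promoters, with 19.5 and 7 CG pairs. The words, on both strands, were the ETS core CCGGAAGT, present in 3 of the 30 or 10% and in 3.81% of all promoters, the cAMP response element TGACGTCA, present in 2 or 6.67% and in 1.83%, the NRF1 core GCGCATGC, present in 0 of the 30 and in 2.47%, and the ERR word TCAAGGTCA, present in 0 of the 30 and in 0.433%. None of these words overlaps another in the promoters shown.

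The promoters of *Slc25a11* (chr10:55859011-55859310) and *Slc25a34* (chr5:159219843-159220142), both on the minus strand, belong to start sites that were Down, and that of *Slc25a27* (chr9:24804058-24804357, plus strand) to the start site that was Up. None of them holds a searched word. They differ in composition, with 26, 3 and 15 CG pairs and 58%, 60.7% and 63% G and C.
Slc25a11: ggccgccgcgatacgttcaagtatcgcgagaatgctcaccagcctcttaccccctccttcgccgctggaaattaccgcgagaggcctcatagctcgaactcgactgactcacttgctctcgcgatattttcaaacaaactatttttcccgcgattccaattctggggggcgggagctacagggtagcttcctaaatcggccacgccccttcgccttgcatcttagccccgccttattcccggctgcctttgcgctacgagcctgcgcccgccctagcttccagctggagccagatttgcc
Slc25a34: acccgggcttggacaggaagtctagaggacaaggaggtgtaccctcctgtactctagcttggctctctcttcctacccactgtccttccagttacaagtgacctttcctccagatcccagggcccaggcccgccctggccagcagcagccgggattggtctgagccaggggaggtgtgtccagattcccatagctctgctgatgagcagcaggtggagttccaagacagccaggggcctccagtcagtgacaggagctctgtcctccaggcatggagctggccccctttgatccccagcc
Slc25a27: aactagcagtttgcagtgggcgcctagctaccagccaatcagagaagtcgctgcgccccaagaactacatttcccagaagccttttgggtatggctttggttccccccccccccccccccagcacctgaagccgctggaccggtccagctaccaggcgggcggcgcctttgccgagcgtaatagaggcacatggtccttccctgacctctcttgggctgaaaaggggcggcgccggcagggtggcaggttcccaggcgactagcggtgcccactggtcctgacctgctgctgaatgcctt

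The cAMP response element, in capitals, lies 158 bases before the start of *Slc25a25* (chr3:36116532-36116831, minus strand) and 84 bases before that of *Slc25a33* (chr5:165502924-165503223, minus strand). The ETS word, in capitals, lies 127 bases before the start of *Slc25a54* (chr2:199399456-199399755, plus strand), the gene whose only ACS was an Up site upstream of it. The other matches were an ETS word 69 bases before the start of *Slc25a20* and one within the first bases after the start of *Slc25a17*. The start sites of *Slc25a25*, *Slc25a33*, *Slc25a20* and *Slc25a17* were not called.
Slc25a25: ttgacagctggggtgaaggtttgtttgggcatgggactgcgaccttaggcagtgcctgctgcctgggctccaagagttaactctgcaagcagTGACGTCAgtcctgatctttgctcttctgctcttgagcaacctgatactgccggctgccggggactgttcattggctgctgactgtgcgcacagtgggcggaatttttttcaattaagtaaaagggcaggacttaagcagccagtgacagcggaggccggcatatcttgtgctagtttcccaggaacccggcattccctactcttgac
Slc25a33: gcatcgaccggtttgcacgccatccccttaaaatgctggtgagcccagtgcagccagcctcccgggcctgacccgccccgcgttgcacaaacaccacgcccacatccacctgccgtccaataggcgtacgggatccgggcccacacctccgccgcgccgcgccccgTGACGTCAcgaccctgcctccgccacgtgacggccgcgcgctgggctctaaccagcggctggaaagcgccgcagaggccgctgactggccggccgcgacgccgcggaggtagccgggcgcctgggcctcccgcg
Slc25a54: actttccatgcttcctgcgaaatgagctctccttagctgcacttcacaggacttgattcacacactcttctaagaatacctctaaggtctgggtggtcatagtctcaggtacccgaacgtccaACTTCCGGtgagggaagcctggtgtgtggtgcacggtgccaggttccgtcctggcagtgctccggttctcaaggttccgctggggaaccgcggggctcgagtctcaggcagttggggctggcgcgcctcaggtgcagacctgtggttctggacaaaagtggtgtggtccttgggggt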

How the data were processed

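According to their notes, the authors mapped to Rn5, removed mitochondrial and poorly mapped reads, called peaks for each age from its combined libraries and merged both peak sets. The deposited table gives raw integration counts by ACS and library, with the nearest gene. The submitters' processing notes name FastQC 0.11.2, BWA 0.7.13, SAMtools 1.3 and MACS2 2.1.1. The authors' own logFC, CPM, F, p and FDR columns were not used. Of 101941 entries, 101603 are distinct ACS and entered the test once. Entries with no gene symbol (6.77%) stayed in the test over ACS and out of the test over genes. The 6 columns of counts were matched to the libraries by letter and number.

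Counts were tested with the quasi-likelihood test of edgeR 4.0.16 in R 4.3.3, with TMM factors between 0.9296 and 1.045, no filter on low counts and age as the only term, with Benjamini-Hochberg adjustment over all 101603 ACS or over all 13834 gene symbols. Positive log2 fold changes are higher in Adult. Errors of fold changes are SE, other errors are SD. For edgeR the SE was derived as the absolute log2 fold change divided by the square root of the test's F statistic. Pups were pooled, so P10 libraries stand for pools. An exact test of 3 against 3 libraries cannot give a p-value under 0.1 for a single value and was not used. The procedure was tested on simulated data. The alternatives were median-of-ratios size factors, column sums, total reads, cyclic loess with limma-trend, DESeq2 1.42.0, limma 3.58.1 voom, edgeR's expression filter with a minimum count of 10, every listed entry kept, a stricter FDR limit of 0.05, and fits in which 1 library was dropped.

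Named with values per library were ACS called at an FDR under 0.05, called TSS-class ACS, the start sites of *Slc25a1*, *Slc25a3*, *Slc25a4*, *Slc25a5*, *Slc25a10*, *Slc25a11*, *Slc25a20*, *Slc25a22* and *Slc25a25*. The 5 genes with the most ACS were named as well. Other called ACS, and the start sites of *Slc25a24*, *Slc25a29*, *Slc25a37* and *Slc25a40*, were named after their values were seen. The same holds for the uncalled ACS beside the Up site of *Slc25a17*. The members and lists were chosen with earlier results of these data known. Protein sequences were not used here.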

Additional observations from a re-analysis of the deposited data

How the results depend on the processing

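The count of 22 Up ACS was 19 with median-of-ratios factors, 15 with column sums, 18 with cyclic loess, 18 with DESeq2, 20 with voom, 22 with the expression filter and 22 with every entry kept, each of them among the 22. Of all ACS these settings called 12%, 10.3%, 10.9%, 11.4%, 12.2%, 12.5% and 12.3% Up. The count was 12 at an FDR under 0.05 and 4 with total reads, beside 7.06% and 1.05% of all ACS. The count of 6 Down ACS was 16 with column sums, 15 with cyclic loess, 96 with total reads and 1 at an FDR under 0.05, and 8, 6, 6, 6 and 6 with median-of-ratios factors, DESeq2, voom, the filter and every entry kept. By voom 5 of the 6 were among those of the main fit. Of all ACS 10.6%, 8.96%, 60.7% and 1.91%, and then 7.05%, 5.73%, 6.16%, 6.9% and 6.62%, were Down, in the order given. Leaving out 1 library gave 12 (without P10 3) to 22 (without P10 1) Up ACS, with 14 without Adult 4, and 2 (without Adult 6 or without P10 2) to 10 (without Adult 5) Down ACS. In these fits 8.77%, 12.8% and 9.56% of all ACS were Up, and 4.96%, 3.23% and 7.1% were Down. By summed integrations, the 4 Up genes became 2 with column sums, 0 with total reads and 1 at an FDR under 0.05, and the 1 Down gene became 3, 31 and 0, and 2 with cyclic loess. Of all genes 6.63%, 0.0795% and 3.32% were Up in these settings. Down shares of all genes were 15%, 86.7% and 1.26%, and 6.4% with cyclic loess. Leaving out 1 library gave 2 (without Adult 6 or P10 2) to 5 (without Adult 5) Up genes and 0 (without Adult 6 or P10 2) to 2 (without Adult 5, P10 1 or P10 3) Down genes. In the order given, these fits called 5.89%, 3.09% and 11.7% of all genes Up. They called 3.16%, 1.53%, 8.17%, 9.79% and 7.39% Down. The median log2 fold change of the *Slc25a* ACS was -0.83 with total reads, where that of all ACS was -0.84, and lay between -0.08 and 0.06 in the other alternatives. The cause of the changes in counts and medians was not tested.

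Of 24 named ACS, 16 were called. Total reads reversed *Slc25a25* (-0.66), *Slc25a27* (-0.46), *Slc25a3* (-0.77), *Slc25a4* (-0.81) and *Slc25a5* (-0.77) at their starts and *Slc25a54* (-0.0493). Column sums reversed *Slc25a3* (-0.0299), *Slc25a4* (-0.0515) and *Slc25a5* (-0.0219), and cyclic loess *Slc25a4* (-0.0269) and *Slc25a5* (-0.0458). Without 1 library the start sites ranged from -0.40 to 0.0336 for *Slc25a22*, -0.00542 to 0.54 for *Slc25a25*, -0.0625 to 0.16 for *Slc25a3*, -0.0490 to 0.15 for *Slc25a4* and -0.0697 to 0.19 for *Slc25a5*, and the cause was not tested. Those of *Slc25a10*, *Slc25a1* and *Slc25a20* stayed negative, from -0.46 to -0.10, -0.22 to -0.04 and -0.20 to -0.04. No paired analysis was possible because the groups share no replicate number.

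Depth was low at weak sites. The median *Slc25a* ACS had 53 integrations in Adult 6 and 128 in P10 1, and its log2 fold change had a median SE of 0.28. With 7 ACS under 20 integrations on average, and with 3 libraries per age, small differences were not detectable. Assignment to the nearest gene does not show which gene a site acts on.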
